A study of Mus musculus with 6 samples.

Results

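Microglial genes were examined in the cortex of mice that lack HtrA2, a mitochondrial serine protease. The list holds 35 genes, 21 of homeostatic or general microglia and 14 of an activated class, and a member counted as measured where a probe set of the array named it and no other gene. On that rule 34 members were measured by 50 probe sets out of 45037 tested: all 21 of the first class by 32 probe sets, and 13 of the activated class by 18. The one member without such a probe set, Spp1, was not analysed here. Cortex was taken at postnatal day 29 from HtrA2 wild type mice and from HtrA2 knockout littermates, untreated as far as the labels say, and 3 arrays were run for each genotype. The sources used here do not give how the knockout allele was made or whether every array stands for a separate animal, so a p-value here refers to the spread among these arrays.

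Microglia are the resident macrophages of the brain. In the undisturbed adult brain they carry a set of surface receptors and adhesion molecules that sense nucleotides, the neuronal chemokine fractalkine, lipids and growth factors, and they depend on signals through the CSF1 receptor. When they meet debris, demyelination or dying cells, the TREM2 receptor and its adaptor TYROBP take part in a switch in which many of the homeostatic genes are lowered while phagocytic, lysosomal, lipid and chemokine genes are raised. Both classes, with the complement genes that microglia also make, are described here in order of the roles of their products.

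PU.1, encoded by Spi1, is the lineage factor of macrophages and microglia and binds DNA at GGAA cores. The 250 bases before the annotated start of RefSeq promoters (GRCm38.p6) were searched on both strands for AGGAAG and for the longer PU.1 site GAGGAAGT, which contains AGGAAG, and for the composite motif of PU.1 with an IRF factor. Of 26 members with a promoter in the table, Spp1 among them, 15 (57.7%) held AGGAAG, against 32.3% of 27025 genes in the table. By class these were 10 of 15 homeostatic and 5 of 11 activated members. GAGGAAGT was present in 2 of the 26 (7.69%, against 2.79% of all genes) and the composite motif in 1 (3.85%, against 2.68%). A match describes the letters in the window and not a bound site. The windows of 8 members follow, 5′ to 3′ on the gene's strand and with AGGAAG or its reverse complement in capitals. The first 7 are the homeostatic members with a window whose knockout levels lay below all wild type levels at every probe set, and Itgam and P2ry12 among them fell. C1qc is shown as a member with overlapping groups.
Itgam (chr7:128062390-128062639, + strand): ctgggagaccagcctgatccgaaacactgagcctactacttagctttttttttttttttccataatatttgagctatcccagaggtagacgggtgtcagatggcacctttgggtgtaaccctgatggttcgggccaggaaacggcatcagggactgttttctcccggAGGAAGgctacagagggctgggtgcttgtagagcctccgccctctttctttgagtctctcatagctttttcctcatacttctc
P2ry12 (chr3:59262986-59263235, - strand): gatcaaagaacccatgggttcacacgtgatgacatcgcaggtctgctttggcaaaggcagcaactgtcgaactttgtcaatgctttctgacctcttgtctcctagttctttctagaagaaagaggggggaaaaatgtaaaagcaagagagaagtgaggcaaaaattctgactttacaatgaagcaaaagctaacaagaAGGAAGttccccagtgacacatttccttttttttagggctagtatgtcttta
P2ry13 (chr3:59210883-59211132, - strand): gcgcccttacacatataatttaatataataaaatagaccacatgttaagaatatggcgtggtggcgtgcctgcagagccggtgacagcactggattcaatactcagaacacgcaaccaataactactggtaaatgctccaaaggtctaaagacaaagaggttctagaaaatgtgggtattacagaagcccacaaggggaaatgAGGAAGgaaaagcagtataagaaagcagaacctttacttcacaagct
Fcrls (chr3:87263525-87263774, - strand): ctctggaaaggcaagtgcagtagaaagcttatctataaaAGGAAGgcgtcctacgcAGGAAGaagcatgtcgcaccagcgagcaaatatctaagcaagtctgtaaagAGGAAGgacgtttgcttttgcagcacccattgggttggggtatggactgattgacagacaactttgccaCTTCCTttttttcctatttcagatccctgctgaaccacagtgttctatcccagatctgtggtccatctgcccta
Olfml3 (chr3:103738002-103738251, - strand): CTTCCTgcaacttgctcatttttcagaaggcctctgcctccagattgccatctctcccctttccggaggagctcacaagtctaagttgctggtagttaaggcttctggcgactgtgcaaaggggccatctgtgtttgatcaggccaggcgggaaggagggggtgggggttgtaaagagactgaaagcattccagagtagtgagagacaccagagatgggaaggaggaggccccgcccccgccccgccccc
Siglech (chr7:55767934-55768183, + strand): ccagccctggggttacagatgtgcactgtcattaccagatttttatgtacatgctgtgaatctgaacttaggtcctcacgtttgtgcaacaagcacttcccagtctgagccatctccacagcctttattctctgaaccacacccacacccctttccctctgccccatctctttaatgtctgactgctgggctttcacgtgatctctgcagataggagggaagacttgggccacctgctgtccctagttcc
Mertk (chr2:128698665-128698914, + strand): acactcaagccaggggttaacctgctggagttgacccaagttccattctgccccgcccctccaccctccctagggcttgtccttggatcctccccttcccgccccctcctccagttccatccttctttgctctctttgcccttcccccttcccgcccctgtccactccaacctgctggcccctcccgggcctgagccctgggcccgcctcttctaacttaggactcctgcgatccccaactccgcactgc
C1qc (chr4:136892915-136893164, - strand): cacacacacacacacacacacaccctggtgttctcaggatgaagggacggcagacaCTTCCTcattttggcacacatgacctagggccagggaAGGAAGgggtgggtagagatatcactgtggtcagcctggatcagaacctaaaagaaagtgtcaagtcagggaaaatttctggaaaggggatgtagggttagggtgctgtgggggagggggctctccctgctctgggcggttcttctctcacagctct
In the Itgam window the match starts 83 bases before the annotated start, in P2ry12 52 and in P2ry13 47. The window of Fcrls held 4 matches, that of Olfml3 held 1 and those of Siglech and Mertk held none. That of C1qc held 2, of which the one farther from the start, at 194 bases, is part of the reverse complement of GAGGAAGT. Spi1, chosen for mention after its values were seen, differed by 0.01 ± 0.07 between the genotypes.

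All values below are deposited RMA levels on the log2 scale, differences are knockout minus wild type with ± standard error unless SD is named, and n = 3 in each group. Each probe set was tested with limma, p-values were adjusted by Benjamini and Hochberg's method across the 45037 probe sets of the table, and a gene is said to rise or fall where the adjusted p is under 0.05. Array medians lay between 6.402 and 6.459, and a probe set under that middle level is called dim, since the array gives no detection call here. RNA was taken from whole cortex, so fewer microglia and less RNA per microglial cell cannot be told apart in any of these values. One probe set of Htra2 fell from 8.92 to 6.65 and another rose from 8.21 to 9.33, and the sources used here do not say which part of the gene was deleted, so only the first goes with the labels. Knockout replicate 2 stood apart in its group, correlating at 0.9936 and 0.9931 with knockout replicates 1 and 3, which correlated at 0.9969 with each other. Wild type replicate 1 and knockout replicate 3 had low Y-linked levels (3.89 and 3.93, against 5.90 to 6.00 in the other 4 arrays), and high Xist levels (8.54 and 8.94, against 4.64 to 5.18), so each group held 1 such array and arrays of more than 1 animal.

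The test called 3 members lower in the knockout and 0 higher, with 15 of the 50 probe sets lower and 3 higher at an unadjusted p under 0.05, against 8.55% and 8.33% of all probe sets. Itgam, P2ry12 and Tmem119, all of the homeostatic class and all at the cell surface, were lower in every knockout array than in every wild type array, by 1.38-fold to 1.65-fold. These 3 probe sets are 3 of 32 in the class and 3 of 50 in the list, where 1.77% of all probe sets were called, 0.884% lower and 0.884% higher. Counted by gene they are 3 of 34, against 1.67% of all 18193 genes lower and 1.64% higher. With the called genes included, 13 of the 32 homeostatic probe sets, in 12 of the 21 genes, had all knockout values below all wild type values, against 11.6% of all probe sets, and 1 had them above (11.6% of all), 23.2% of all probe sets standing apart in either direction.

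All 8 probe sets of the 5 receptors had negative differences, and 1 passed. P2ry12 encodes the purinergic receptor with which microglial processes find ADP, and P2ry13 encodes a second ADP receptor. P2ry12 measured 9.68, 9.66 and 9.48 in wild type replicates 1, 2 and 3 and 9.04, 9.17 and 8.82 in knockout replicates 1, 2 and 3. The groups stood apart, with the lowest value in knockout replicate 3. P2ry12 fell by 0.60 ± 0.11 (1.52-fold lower, adjusted p = 0.0398). P2ry13 gave 8.39, 8.39 and 8.32 in wild type and 8.04, 7.88 and 7.45 in knockout, again without overlap and with knockout replicate 3 the lowest. Its difference of -0.57 ± 0.14 was almost as large, but it did not pass (adjusted p = 0.0912).

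Gpr34, a receptor for lysophosphatidylserine, was at 7.77, 7.92 and 7.47 in wild type and 7.27, 6.83 and 7.42 in knockout. The groups did not overlap, though knockout replicate 3 came close to wild type replicate 3 (-0.55 ± 0.17, adjusted p = 0.151). Csf1r encodes the receptor for CSF1 and IL-34, on which microglial survival depends, and had 3 probe sets. The brightest gave 11.86, 11.77 and 11.78 in wild type and 11.57, 11.65 and 11.55 in knockout, a small difference of -0.22 ± 0.07 with no overlap (adjusted p = 0.178). The other probe sets of Csf1r differed by -0.19 and -0.09. Cx3cr1, the fractalkine receptor, had 2 probe sets that differed by -0.41 ± 0.15 and -0.67 ± 0.26. Both overlapped between the groups, because wild type replicate 3 (8.84 and 6.13) lay well below wild type replicates 1 and 2 (9.36 and 9.30, 7.18 and 6.73). Knockout levels of Cx3cr1 were 8.57, 8.93 and 8.76 at the brighter probe set, and neither passed (adjusted p = 0.222 and 0.243).

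**Figure D1:**
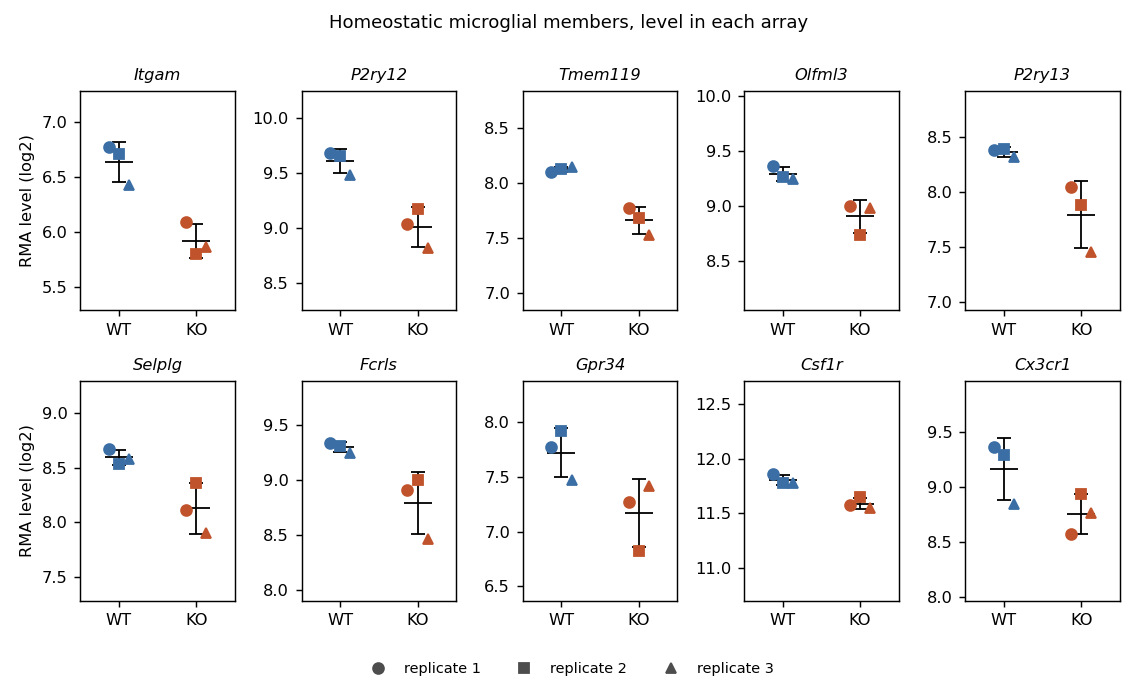
RMA level (log2) of 10 homeostatic members in each array at the probe set with the smallest p; circles, squares and triangles are replicates 1, 2 and 3, bars are the mean ± SD, and every vertical axis spans the same range of log2 levels. Members other than Cx3cr1 were picked by smallest p, which favours separation. Wild type and knockout points separate in 9 of the panels and overlap in that of Cx3cr1. Over the class, knockout lay wholly below wild type at 13 of 32 probe sets, against 11.6% of all. Only Itgam, P2ry12 and Tmem119 passed the test.

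Surface and adhesion molecules held the other called members. Itgam encodes CD11b, the alpha chain of complement receptor 3. Its levels were 6.78, 6.71 and 6.43 in wild type and 6.10, 5.797 and 5.87 in knockout, so that every knockout array lay below the lowest wild type array. Itgam fell by 0.72 ± 0.12 (1.65-fold lower, adjusted p = 0.0305), the largest difference of the list, at a probe set whose mean lies just under the middle of all probe sets. Tmem119, a transmembrane protein used to tell microglia from other macrophages, measured 8.11, 8.13 and 8.15 in wild type and 7.77, 7.68 and 7.53 in knockout. Wild type values were tightly grouped (SD 0.0227) and knockout values more spread (SD 0.122). Tmem119 fell by 0.47 ± 0.08 (1.38-fold lower, adjusted p = 0.0379).

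The other surface members lay in the same direction without passing. Fcrls, an Fc receptor-like protein of microglia, was at 9.34, 9.31 and 9.25 in wild type and 8.90, 8.998 and 8.46 in knockout (-0.51 ± 0.13, adjusted p = 0.109). Selplg, which encodes the selectin ligand PSGL-1, was at 8.67, 8.53 and 8.58 against 8.11, 8.36 and 7.91 (-0.47 ± 0.12, adjusted p = 0.0953). In both, knockout replicate 3 was the lowest array and knockout replicate 2 the nearest to wild type. Siglech, a sialic acid-binding lectin, differed least of these (-0.17 ± 0.09, adjusted p = 0.400), also with no overlap. At an adjusted p under 0.10, P2ry13, Selplg and Olfml3 would join the called members, 6 probe sets in all, where 2.26% of all probe sets are lower on that threshold.

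The calls rest on few arrays. Leaving out 1 array kept the fold change of Itgam between -0.82 and -0.65, of P2ry12 between -0.68 and -0.50 and of Tmem119 between -0.52 and -0.40. The adjusted p of Itgam was 0.154, 0.169 and 0.0567 without wild type replicates 1, 2 and 3, and 0.0441, 0.0282 and 0.122 without knockout replicates 1, 2 and 3. That of P2ry12 was 0.187, 0.199 and 0.0903, then 0.0865, 0.0149 and 0.118 in the same order. For Tmem119 it was 0.168, 0.197 and 0.120, then 0.0548, 0.0262 and 0.121. P2ry12 and Tmem119 therefore kept their call only without knockout replicate 2, and Itgam without knockout replicate 1 (1 lower member, where 0.531% of all probe sets were lower) or 2. Without knockout replicate 2 the lower members numbered 6 (Fcrls, Olfml3 and Selplg besides the 3), where 2.28% of all probe sets were lower. In a fit with a term for the Y-linked level the adjusted p was 0.0562 for Itgam, 0.0655 for P2ry12 and 0.0538 for Tmem119, at fold changes of -0.72, -0.60 and -0.47.

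General members with other roles were mixed. Olfml3, a secreted olfactomedin-like protein of microglia, gave 9.36, 9.26 and 9.25 in wild type and 9.002, 8.73 and 8.98 in knockout. Its groups did not overlap and the difference was -0.39 ± 0.09 (adjusted p = 0.0858). Aif1, which encodes the actin-binding protein IBA1 used to stain microglia, gave 7.10, 6.88 and 6.91 against 7.04, 6.52 and 6.61. Knockout replicate 1 lay within the wild type range of Aif1, and the difference was -0.24 ± 0.14 (adjusted p = 0.450). Sall1, a transcription factor that maintains microglial identity, differed by -0.22 ± 0.11 at its brighter probe set and by 0.07 ± 0.08 at the other. Laptm5, a lysosomal membrane protein of leukocytes, had 5 probe sets between -0.20 and -0.05, 1 of them without overlap, and none passed. Mertk, a receptor that clears apoptotic cells and that astrocytes also make, was 8.65, 8.64 and 8.68 in wild type and 8.44, 8.14 and 8.59 in knockout (-0.27 ± 0.11, adjusted p = 0.286). Without knockout replicate 2 the differences were -0.14 for Aif1, -0.14 for Mertk and -0.11 for the brighter probe set of Sall1.

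Complement C1q, TREM2 signalling and cathepsin S were at nearly the same level in both genotypes. C1qa, C1qb and C1qc encode the chains of C1q, which starts the classical complement pathway and tags synapses. C1qa gave 9.70, 9.61 and 9.35 in wild type and 9.46, 9.51 and 9.57 in knockout, with knockout inside the wild type range. Its difference was -0.04, with a 95% interval of -0.27 to 0.20. C1qb differed by 0.03 at its brightest probe set (9.91, 9.95 and 9.76 against 9.77, 9.93 and 9.998; interval -0.19 to 0.24), and its other 2 probe sets differed by -0.06 and 0.03. C1qc gave 9.12, 9.09 and 8.92 against 9.07, 8.96 and 9.21 (0.03, interval -0.18 to 0.25). Differences as large as those of Itgam, P2ry12 and Tmem119, the members that passed, lie outside the intervals of all 3 C1q genes. The median difference of the homeostatic class, -0.24, lies inside the interval of C1qa and outside those of C1qb and C1qc.

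Tyrobp, the adaptor of TREM2, gave 9.21, 9.11 and 9.10 against 9.17, 9.23 and 9.08 (0.02, interval -0.16 to 0.20). Trem2, the lipid-sensing receptor, gave 7.58, 7.53 and 7.44 against 7.62, 7.67 and 7.61 at its brighter probe set. There all knockout values lay above all wild type values by a small margin (0.11, interval -0.05 to 0.28, adjusted p = 0.490), while the dim probe set differed by -0.04. Ctss, a lysosomal protease abundant in microglia, gave 11.26, 11.27 and 11.20 against 11.25, 11.35 and 11.21 (0.03, interval -0.14 to 0.20). These intervals are for 1 probe set at a time and are not adjusted for the number of members.

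**Figure D2:**
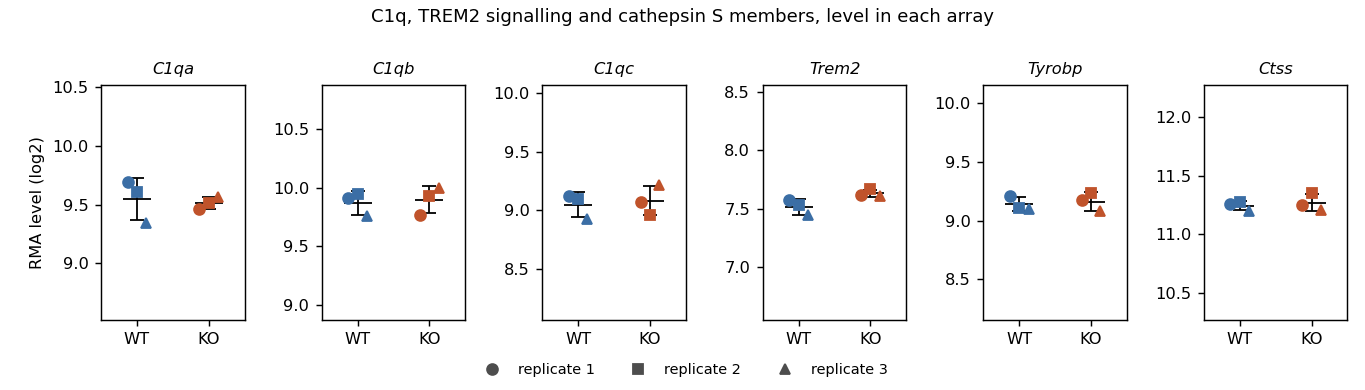
RMA level (log2) of C1qa, C1qb, C1qc, Trem2, Tyrobp and Ctss in each array at the probe set of highest mean, drawn on the same span of log2 levels as the plot of homeostatic members; bars are mean ± SD and symbols are replicates. Wild type and knockout overlap in all panels but Trem2, whose difference was 0.11.

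In the activated class no member passed the test in either direction. Of its 18 probe sets 14 were higher in the knockout and 4 lower, 3 and 2 of them at an unadjusted p under 0.05, against 8.33% of all probe sets higher and 8.55% lower. The groups stood apart at 2 probe sets above and 2 below, against 11.6% of all probe sets in each direction. At the probe set of highest mean 8 of the 13 genes were dim, among them Clec7a, Ccl3, Cst7, Itgax and Cybb. With limma-trend 0 members of the class were called in either direction, where 1.89% of all probe sets were lower and 2.04% higher. With array weights Ccl3 was higher and Lpl lower, where 5.4% and 3.94% of all probe sets were.

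Clec7a encodes dectin-1, a lectin of phagocytic microglia. It gave 5.42, 5.58 and 5.10 in wild type and 5.64, 5.95 and 5.74 in knockout, above wild type in all 3 arrays, with a difference of 0.41 ± 0.13 (adjusted p = 0.173). Cd68, a lysosomal membrane protein, gave 7.81, 7.75 and 7.69 against 8.03, 7.70 and 8.19 (0.22 ± 0.12, adjusted p = 0.427). Cd52, a small surface glycoprotein that lymphocytes also carry, gave 6.48, 6.51 and 6.52 against 6.89, 6.27 and 6.93 (0.19 ± 0.17, adjusted p = 0.634). In both Cd68 and Cd52 knockout replicates 1 and 3 lay above all wild type arrays and knockout replicate 2 did not. Without knockout replicate 2, Cd68 differed by 0.36 ± 0.08 (adjusted p = 0.0442), Cd52 by 0.41 ± 0.06 (adjusted p = 0.0192) and Ccl3 by 0.71 ± 0.16 (adjusted p = 0.0453), where 4.46% of all probe sets were higher. Itgax, which encodes CD11c, differed by 0.07 ± 0.10 with overlapping groups, and by -0.03 without knockout replicate 2.

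Chemokines were dim and went different ways. Ccl3, which attracts leukocytes, gave 4.62, 4.45 and 4.52 in wild type and 4.95, 4.75 and 5.52 in knockout. All knockout arrays lay above wild type, knockout replicate 3 by far the most, and the difference was 0.54 ± 0.18 (adjusted p = 0.175). Without knockout replicate 3 the difference in Ccl3 was 0.32 ± 0.10 (adjusted p = 0.256). Ccl4, its close relative, differed by 0.14 ± 0.12 with overlap, and by 0.02 without knockout replicate 2. Ccl6 was lower at its brighter probe set, with 6.45, 6.62 and 6.395 against 6.33, 6.23 and 6.12 (-0.26 ± 0.09, adjusted p = 0.191), and level at the other (-0.01 ± 0.12).

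Among secreted and lipid-handling members Lpl, lipoprotein lipase, ran against its class. Its 2 probe sets gave 10.27, 10.32 and 10.37 against 10.01, 10.39 and 9.21, and 8.15, 8.15 and 8.10 against 7.79, 7.93 and 7.25. Knockout replicate 3 was by far the lowest at both, and only the second separated the groups (-0.47 ± 0.16, adjusted p = 0.180). Without knockout replicate 3 the differences of Lpl shrank from -0.45 to -0.12 and from -0.47 to -0.27. Neurons and other cells of the brain also make Lpl, and their part was not tested. Lyz2, the lysozyme of macrophages, gave 7.41, 7.19 and 7.19 against 7.35, 7.52 and 7.52 (0.20 ± 0.09, adjusted p = 0.327). Cst7, the cathepsin inhibitor cystatin F, differed by 0.16 ± 0.11 (0.07 without knockout replicate 2) and Lgals3, galectin-3, by 0.05 ± 0.14. Axl, a phagocytic receptor related to Mertk that vessels and astrocytes also make, differed by 0.12 ± 0.07 at its bright probe set. Cybb, the catalytic subunit of the phagocyte NADPH oxidase, had 3 dim probe sets at 0.32 ± 0.13, 0.13 ± 0.09 and 0.13 ± 0.08, the first with 4.12, 4.29 and 4.04 against 4.21, 4.65 and 4.55.

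**Figure D3:**
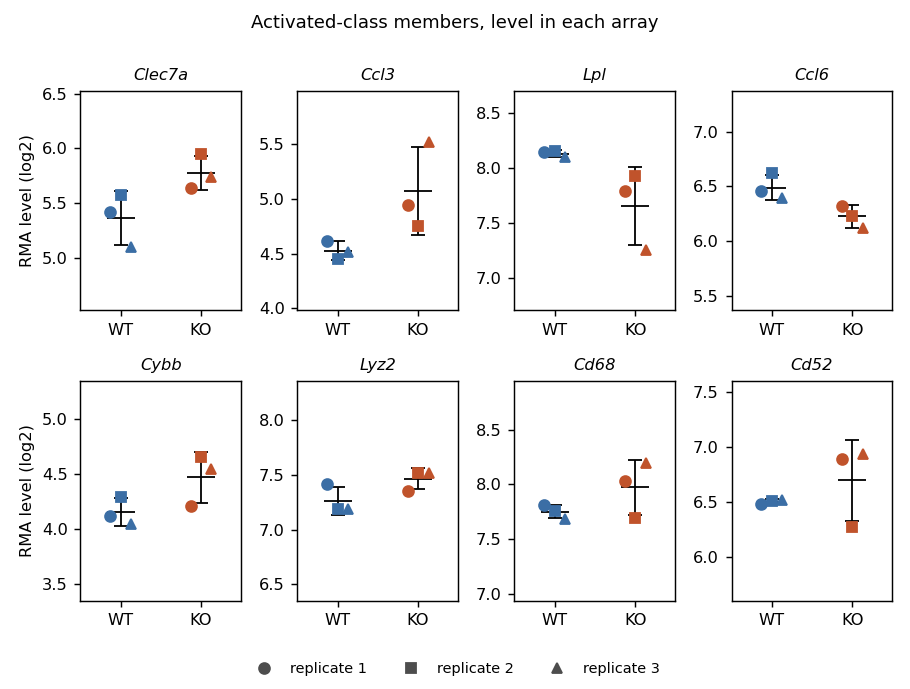
RMA level (log2) of 8 activated-class members in each array at the probe set with the smallest p, with mean ± SD and replicate symbols, on a common span of log2 levels. Members other than Cd68 and Cd52 were picked by smallest p. Clec7a and Ccl3 lie above and Lpl and Ccl6 below wild type in all knockout arrays. Cd68 and Cd52 are high in knockout replicates 1 and 3 and not in replicate 2. None passed the test.

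Set side by side, the classes differed in their middle values. With 1 probe set per gene, that of highest mean, the median difference was -0.24 in the 21 homeostatic members and 0.14 in the 13 activated members, where the median of all genes on the same rule was 0.02. Without knockout replicate 2 the activated median was 0.083. In the homeostatic class 16 genes were lower and 5 higher, and in the activated class 2 were lower and 11 higher. The members were chosen with results of these arrays known and share cells, so these medians are given with no test, and a difference between the classes was not tested. By role, the median was -0.55 in the 5 receptors, -0.47 in the 5 surface and adhesion members, 0.03 in the 3 C1q genes and 0.07 in Trem2 and Tyrobp.

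**Figure D4:**
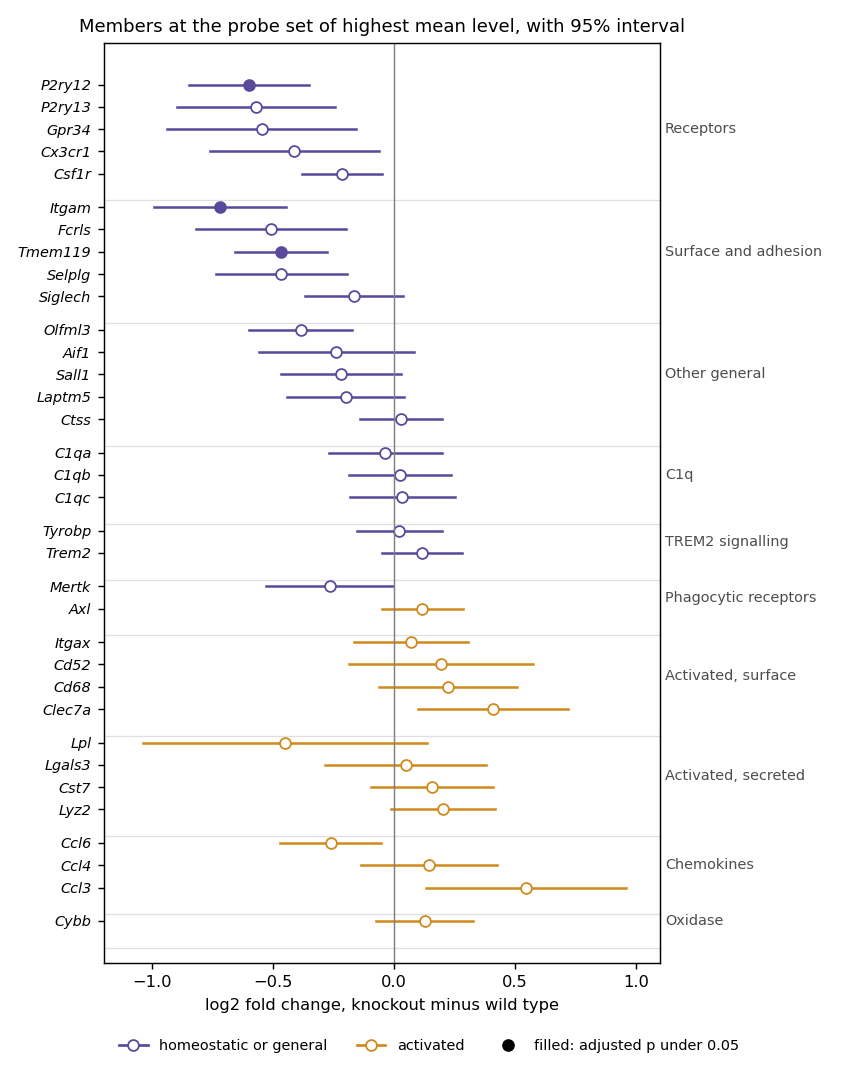
Log2 fold change (knockout minus wild type) of the 34 measured members at the probe set of highest mean, with the 95% interval of each, grouped by role and coloured by class; filled points passed at an adjusted p under 0.05. Receptors and surface members lie left of 0, C1q, Trem2, Tyrobp and Ctss near 0, and most activated members right of 0.

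Averaged over members as the deviation from the wild type mean, the homeostatic class lay at -0.22, -0.30 and -0.31 in knockout replicates 1, 2 and 3, against -0.09 to 0.06 in wild type. The activated class lay at 0.11, 0.14 and 0.10, against -0.04 to 0.02. Knockout replicate 2, which is nearest to wild type in Cd68, was not the nearest over either class. The 5 receptors stood at -0.43, -0.44 and -0.53, and the 5 surface members at -0.37, -0.38 and -0.64. C1q lay between -0.06 and 0.10 in knockout, inside the wild type spread of -0.15 to 0.09 but for knockout replicate 3.

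Markers of other cells moved in some of the same arrays. The 12 measured markers of meninges, none past the test, deviated by 0.51, 0.14 and 0.85 in knockout replicates 1, 2 and 3. Wild type lay at -0.08 to 0.14. The same order of knockout arrays was seen in Cd68, Cd52 and Ccl3, among other members. P2ry12, Fcrls, Selplg and both probe sets of Lpl, among others, had the reverse order. An order of only 3 arrays is easily shared, and no such match was tested. All 20 meningeal probe sets were higher in the knockout, 8 at an unadjusted p under 0.05, against 8.33% of all probe sets. Knockout lay wholly above wild type at 8 of the 20, against 11.6% of all. Markers of border macrophages, which live in meninges and around vessels, deviated by 0.09, -0.14 and 0.25 (wild type -0.02 to 0.04), and 0 of 10 passed. At an unadjusted p under 0.05, 2 of their 12 probe sets were lower and 0 higher, against 8.55% and 8.33% of all. Mean levels of the border macrophage list ran from 6.23 to 6.29 in wild type and from 6.11 to 6.51 in knockout, and 5 of its 10 genes were dim. The part of meningeal tissue in the values of any member was not tested. Blood cell lists were mostly dim: 9 of 9 neutrophil, 8 of 10 lymphocyte and 4 of 7 monocyte genes lay under the middle level, and no member of these lists passed. Monocyte markers deviated by 0.06 to 0.13 in knockout against -0.03 to 0.03 in wild type.

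Lists of other brain cells held called genes too, where 1.67% of all genes fell and 1.64% rose. In the oligodendrocyte lineage 2 of 9 genes fell, Gpr17 and Olig2, and 1 of 10 neuron genes fell, Nefm. Of 10 astrocyte genes 2 fell, Aqp4 and S100b, and 1 rose, Gfap. Oligodendrocyte lineage markers deviated by -0.37 to -0.27 in knockout against -0.07 to 0.07 in wild type, neuron markers by -0.15 to -0.10 against -0.01 to 0.02, and astrocyte markers by -0.24 to -0.03 against -0.02 to 0.03. Endothelial and mural markers deviated by -0.00 to 0.18 against -0.08 to 0.06, with 0 of 11 called. At an unadjusted p under 0.05, 2 of their 21 probe sets were higher and 0 lower, against 8.33% and 8.55% of all. Of 3 measured erythrocyte genes, 2 of them dim, 1 fell, Alas2 (-0.87 ± 0.16, adjusted p = 0.0416). This list deviated by -0.63, -0.22 and -0.50 in knockout replicates 1, 2 and 3, against -0.04 to 0.02 in wild type. At an unadjusted p under 0.05, 3 of its 5 probe sets were lower, against 8.55% of all. Whether the shift of the homeostatic members differed from that of the oligodendrocyte list was not tested.

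**Figure D5:**
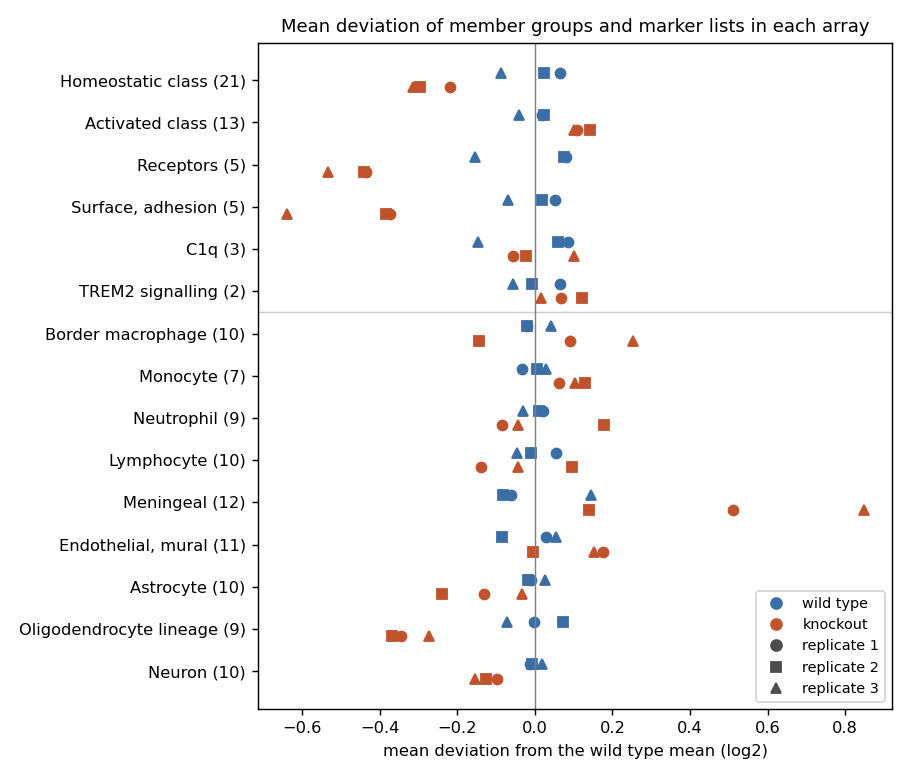
Mean deviation from the wild type mean (log2) of member groups, above the line, and of marker lists of other cells, below it, in each array, with the number of genes in brackets; blue is wild type, orange knockout and the symbols are replicates. The homeostatic class, receptors and surface members lie left of wild type in all 3 knockout arrays. So do the oligodendrocyte lineage, neuron and astrocyte lists. C1q overlaps wild type, and the meningeal list is high in knockout replicates 1 and 3.

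The other genes of the same pathways, 92 measured of 102 listed, showed 3 calls among 204 probe sets, 2 that rose and 1 that fell, a share near the 1.77% of all probe sets called. At an unadjusted p under 0.05 20 were lower and 18 higher, where 16.9% of all probe sets passed in either direction, the share to set beside the counts of single lists below. The median difference over these genes was 0.02, that of all genes. C3ar1, the receptor for the complement fragment C3a on myeloid cells, rose at 1 of its 3 probe sets, a dim one. There it went from 5.27, 5.47 and 5.17 to 6.06, 5.98 and 5.96 (0.70 ± 0.09, adjusted p = 0.0167). Its other probe sets differed by 0.37 and 0.27, also with no overlap between groups, and neither passed. The brightest was the one at 0.27 ± 0.11 (adjusted p = 0.290). Cyba, the partner of Cybb in the membrane part of the NADPH oxidase, rose from 7.77, 7.67 and 7.71 to 8.15, 8.16 and 8.29 (0.48 ± 0.08, adjusted p = 0.0280). Mfge8, a bridge between dying cells and phagocytes that astrocytes make, fell from 11.09, 11.12 and 11.15 to 10.75, 10.77 and 10.60 (-0.41 ± 0.08, adjusted p = 0.0434). Among the 204 probe sets 15 passed when knockout replicate 2 was left out, where 6.74% of all probe sets did, 1 when wild type replicate 2 was (0.144% of all), and 0 when any other single array was.

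Of 12 measured genes of microglial transcription and TGF-beta signalling 0 passed, with 5 of 34 probe sets at an unadjusted p under 0.05. The closest was Il34, the neuronal ligand of the CSF1 receptor, at 9.03, 8.95 and 8.89 against 8.71, 8.51 and 8.61 (-0.34 ± 0.08, adjusted p = 0.0857), followed by Mef2c (-0.17 ± 0.07) and Csf2ra (0.18 ± 0.08). Of 16 genes of sensing and ligands 0 passed, with 4 of 40 probe sets at an unadjusted p under 0.05. Cx3cl1, fractalkine, the neuronal ligand of Cx3cr1, was at 12.17, 12.09 and 12.14 against 11.94, 11.78 and 11.90 (-0.26 ± 0.08, adjusted p = 0.135). Slc2a5, a fructose transporter of microglia, and Cd200r1 differed by -0.28 ± 0.10 and -0.23 ± 0.11.

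Complement genes besides C1q had C3ar1 as the 1 of 8 measured that rose, at a dim probe set. Serping1 stood at 0.66 ± 0.29 and C1ra at 0.31 ± 0.15. Serping1, the C1 inhibitor, was at 8.19, 7.34 and 8.73 in knockout replicates 1, 2 and 3 and at 7.33 to 7.49 in wild type, the array order of the meningeal markers. In phagocytosis and TREM2 signalling Mfge8 was the 1 of 18 that fell, with Tyro3 at -0.39 ± 0.13 and Fcgr1 at 0.20 ± 0.08. Among lysosome and lipid genes 0 of 15 passed, with 11 of 37 probe sets at an unadjusted p under 0.05. Of these 8 were higher and 3 lower, where 8.33% and 8.55% of all probe sets were. Abca1, which exports cholesterol, was at 9.73, 9.76 and 9.81 against 10.60, 10.13 and 11.03 (0.82 ± 0.20, adjusted p = 0.0857), again in the array order of the meningeal markers, with Grn at 0.27 ± 0.07 and Lipa at -0.30 ± 0.09. Cyba was the 1 of 8 that rose in the oxidase list, with Lyz1 at 0.27 ± 0.13 and Sod2 at 0.11 ± 0.07 (-0.39 to -0.03 at its other 3 probe sets). Cytokines and chemokines had 0 of 15 past the test, with 4 of 21 probe sets at an unadjusted p under 0.05. Ccl12 was at 7.24, 5.45 and 5.65 in knockout against 4.66 to 5.11 in wild type (1.19 ± 0.42, adjusted p = 0.198), and Ccl7 and Ccl9 differed by 0.24 ± 0.09 and -0.20 ± 0.08.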

How the data were processed

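Cortex RNA of HtrA2 wild type and HtrA2 knockout mice was measured on Affymetrix arrays, 3 per genotype. The deposited values were read as log2 levels made by the authors with RMA, per the submitters' processing notes, which give no version. Because RMA brings the probe intensities of all arrays onto one distribution, it hides a shift common to most genes. The probe set levels made from them still differed slightly in their array medians. No source names the base of the logarithm, and base 2 was assumed from the span of the values. Of 45101 probe sets, 64 array controls were left out. The platform annotation gave 34945 of the others 1 gene symbol, 932 several and 9160 none, with symbols updated by gene identifier through the RefSeq table of GRCm38.p6.

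The genotypes were compared in R 4.3.3 with limma 3.58.1 (two-sided, lmFit then eBayes). Genotype was the sole term, all 45037 probe sets entered the fit, and the script was tested on simulated data. Precision is limited by the number of arrays, 3 per group. The members, lists and tests were chosen with earlier results of these data known. Values in every array are given for members past the test and for up to 6 more of each class by smallest p. Others were added where a group is described. For each list of other genes of the same pathways the 3 genes of smallest p at the probe set of highest mean were named. Lists of other cells are given by counts and mean deviations, with only their called genes named. The alternatives tried were limma-trend, removal of dim probe sets, further quantile normalization, median centring, array weights, a replicate block, a term for the Y-linked level, other thresholds, other probe set rules and leaving out arrays.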

Additional observations from a re-analysis of the deposited data

How the results depend on the processing

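Without probe sets under the median level, with limma-trend, after further quantile normalization and after median centring, 3, 4, 4 and 3 member probe sets were called, while 1757, 1770, 1081 and 681 of all probe sets were. Olfml3 was added in the first 3 of these, and Itgam, itself dim, was not tested in the first. With array weights 10 members were called (9 lower, 1 higher) and 4205 of all. Adjusted p limits of 0.10 and 0.01 gave 6 and 0 members, 2035 and 79 of all, and 9 and 0 probe sets of the other microglial genes. Those other genes had 3 probe sets called in the report. They had 7, 10, 5 and 19 without dim probe sets, with limma-trend, after quantile normalization and with array weights. With a term for the Y-linked level 0 members and 441 of all were called. Leaving out 1 array gave 0 to 9 member probe sets, 65 to 3037 of all and 0 to 15 probe sets of the other genes. The highest came without knockout replicate 2 each time. Choices added after the data were seen were leaving out both replicates numbered 2 (0 members, 314 of all) and using the 4 arrays with a high Y-linked level alone (0 members, 3 of all, 0 of the other genes).

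The labels do not say whether same-numbered replicates were paired. Their deviations from the group means correlated at -0.20, -0.04 and -0.17. These values cannot settle it, because the deviations of 3 arrays around their own mean depend on one another. With the number as a replicate block 0 members, 154 of all and 0 of the other genes were called.

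The homeostatic median ran from -0.30 to -0.20 and the activated median from 0.083 to 0.181 when 1 array was left out. Without both replicates numbered 2 the homeostatic median was -0.18, and without dim probe sets the activated median was 0.19. Of the 50 member probe sets 37 kept their direction in all settings run. The other 13 changed it in at least 1, all with a difference of at most 0.14: those of C1qa, C1qc, Ctss, Tyrobp, Itgax, Ccl4 and Lgals3, 2 of C1qb and 1 each of Trem2, Laptm5, Axl and Ccl6. The cause of these differences was not tested.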
